A study of Mus musculus with 17 samples.

Results

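DNA methylation of 46 mouse genes whose human counterparts are often methylated at their promoters in cancer was followed in whole blood of 17 C57BL/6 mice. A site was a member when 13 or more mice had 50 or more reads there and when it lay between 1000 bp upstream of the start and the end of one of these genes in the GENCODE vM1 annotation of the mouse genome NCBIM37 (mm9). Of the 46 genes, 25 had such a site, giving 130 member sites among 18884 autosomal sites of the same depth and 173449 deposited sites. The mice formed 3 groups: AL-young (n = 5, fed ad libitum, 4 months old, 2 females and 3 males), AL-old (n = 7, fed ad libitum, 29 to 33 months old, 5 females and 2 males) and CR-old (n = 5, calorie-restricted since early adulthood, 32 to 38 months old, 2 females and 3 males). CR-old mice were the oldest, so a difference between them and AL-old mice carries age as well as diet. Methylation was read by DREAM, in which SmaI first opens unmethylated CCCGGG sites and XmaI then opens the methylated ones, so that the end of each fragment records whether the CpG in the middle of the site was methylated.

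Tumour suppressor genes restrain cell growth, repair DNA or hold cells in place. Their start sites often lie in CpG islands, stretches rich in CpG that normal tissues keep unmethylated, and methylation of such an island in a tumour goes along with a silent gene. In ageing tissues CpG islands tend to gain and CpG-poor sequence tends to lose methylation. Whole blood is a mixture of cell types, so a changed share of a cell type and a changed methylation within cells cannot be told apart here.

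To show what kind of sequence changed, the surroundings of 1 called site are given for 8 of the 9 genes with a site called between AL-old and AL-young mice, read from the forward strand of NCBIM37, with CCCGGG in capitals. The upper 5 were higher and the lower 3 lower in AL-old mice. Each is the called site with the largest difference, except in Prdm16, where the pair of adjoining called sites is shown. The Cdkn1a site lies in an untranslated region and is not shown.
Cdh4 (chr2:179178045-179178146): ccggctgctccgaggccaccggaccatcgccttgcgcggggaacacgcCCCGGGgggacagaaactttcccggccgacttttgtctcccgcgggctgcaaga
Pgr (chr9:8901290-8901391): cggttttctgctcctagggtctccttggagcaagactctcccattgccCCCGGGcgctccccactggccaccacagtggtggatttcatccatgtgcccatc
Hic1 (chr11:74980365-74980466): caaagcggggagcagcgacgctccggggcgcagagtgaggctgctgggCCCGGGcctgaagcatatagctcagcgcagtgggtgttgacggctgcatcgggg
Prdm16 (chr4:154009899-154010000): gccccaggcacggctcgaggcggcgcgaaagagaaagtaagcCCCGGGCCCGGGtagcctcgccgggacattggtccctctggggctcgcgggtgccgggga
Tmeff2 (chr1:50984221-50984322): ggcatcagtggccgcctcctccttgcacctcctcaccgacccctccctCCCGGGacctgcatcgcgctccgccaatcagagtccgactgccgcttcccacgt
Trp73 (chr4:153465582-153465683): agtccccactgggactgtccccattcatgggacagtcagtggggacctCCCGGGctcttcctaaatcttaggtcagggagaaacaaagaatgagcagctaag
Mgmt (chr7:144086738-144086839): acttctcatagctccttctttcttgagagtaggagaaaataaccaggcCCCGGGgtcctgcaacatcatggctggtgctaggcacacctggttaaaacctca
Slit2 (chr5:48387172-48387273): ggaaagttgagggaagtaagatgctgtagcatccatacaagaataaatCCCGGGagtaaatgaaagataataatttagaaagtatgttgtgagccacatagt
The 12 member sites called higher in AL-old mice had a median of 20 CpGs (range 9 to 38) in the 200 bases around them. The 5 called lower had a median of 4 CpGs (range 2 to 5), and the 113 sites not called had a median of 11. The Prdm16 window holds 2 CCCGGG sites end to end, so they may not be separate measurements. Whether they share reads was not tested. Neighbouring sites can be the 2 ends of one fragment, so counts of sites within a gene are not counts of independent events.

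The deposited files hold 6407519 to 51612805 reads per mouse, and the median member site had 343 reads. At 50 reads, a share of 0 allows up to 6% methylation by counting error. Beside the read counts, the authors gave a methylation value adjusted to spiked standards. The factor by which this adjustment multiplies the odds of methylation was 1.40 to 3.96 in all 5 AL-old females and 1.80 in 1 CR-old female (CR-old 06), and 0.872 to 1.13 in the other 11 mice. High factor and female sex thus coincide within AL-old and cannot be told apart there. Age runs with them, as these females were 29 or 30 months old and the 2 AL-old males 33 months. The standards differed between the 2 sets of mice: one averaged 11.6% uncorrected in the 6 high-factor mice and 33.7% in the other 11, and 20.6% and 33.6% after adjustment. Another averaged 60.7% and 40.7% after adjustment, so the adjusted values of the standards still differed. Tests were therefore made on the read counts, values below are uncorrected unless called adjusted, and results are repeated with the factor taken into account. Reads on chromosome Y separated the labelled females from the labelled males in all 17 mice.

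The member sites fell into 3 levels in AL-young mice. A total of 80 sites were below 5% on average, 73 of them in a CpG island; 27 were between 5% and 90%; and 23 were above 90%. These classes use AL-young values, so they describe the starting level. All 15 sites of Apc, Cdkn1b, Rassf2, Rb1 and Reck had group means under 1% in all 3 groups. No site was measured in 21 of the 46 genes, which were Cdkn2a, Cdkn2b, Rassf1, Rassf5, Dapk1, Brca1, Gstp1, Vhl, Cdh1, Esr2, Twist1, Shox2, Myod1, Hand2, Tfpi2, Timp3, Thbs1, Socs1, Igfbp7, Vim and Calca. Tfpi2 and Calca had 0 CCCGGG sites in the interval. The genes held 632 deposited sites in all, and 10 of them missed the depth rule by 1 mouse. One of these, in the Pgr island at chr9:8901930-8901935, averaged 1.36% in AL-young, 13.4% in AL-old and 0.674% in CR-old mice with enough reads. Among the 5 sites just inside the rule, a Slit2 promoter site at chr5:48374277-48374282 averaged 0.390%, 0.505% and 0.169%.

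The first comparison, AL-old against AL-young, asked how these genes change with age. A site was called when its adjusted p in edgeR's quasi-likelihood test, adjusted over all 18884 sites, was under 0.05 and the group means differed by at least 2 points. Methylation was higher in AL-old at 12 member sites, in Cdh4, Pgr, Hic1, Prdm16 and Tmeff2, and lower at 5, in Trp73, Mgmt, Cdkn1a and Slit2. Of all tested sites, 3.95% were called higher and 5.95% lower, against 9.23% and 3.85% of the member sites. The 12 gains were all at CpG island sites below 5% in AL-young mice, where they made up 16.4% of 73 member sites and 5.81% of 11182 sites of that class. They came from 5 genes, so the member share rests on few loci. In the promoter window, 1000 bp upstream to 500 bp downstream of the gene start, 1 of 33 member island sites was called higher (3.03%). In gene bodies 11 of 53 member island sites were (20.8%). Counted from any annotated transcript start instead, the same window held 53 member island sites, of which 6 were called higher (11.3%). The same shares over all tested island sites were not computed. Whether this split by region is particular to the member genes was therefore not tested. The median difference over the 130 member sites was 0 points, and over all sites it was -0.017 points. In the 73 island sites the median difference was 0.830 points, and over all sites of the class it was 0. The median log2 odds ratio of all sites was -0.25 and moved to 0.27 when the correction factor entered the fit as an offset, so sizes are best read relative to that shift. With the offset 26 member sites were called higher and 3 lower, while the shares of all sites moved to 7.03% and 3.31%. Among the mice with a low factor alone, which leaves 2 AL-old mice, the member counts were 26 and 2 and the shares of all sites 8.82% and 2.07%. Of the 12 sites called higher in all mice, 12 were called with the offset, 10 among low-factor mice and 9 with a high or low factor as covariate. Of the 5 called lower, 3, 1 and 1 were.

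**Figure D1:**
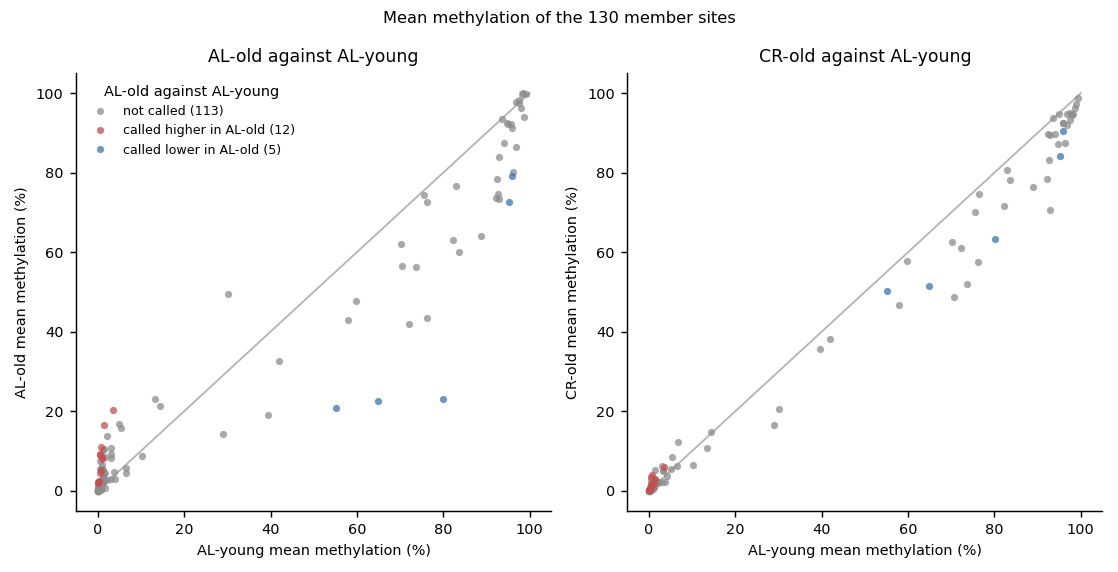
Mean uncorrected methylation of each of the 130 member sites in AL-old (left) and CR-old (right) mice, in percent, against the AL-young mean, in percent; the line marks equality and colours give the call between AL-old and AL-young. The 12 sites called higher sit at the lower left, near 0 in AL-young, and the 5 called lower sit below the line in the left panel.

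Cdh4, which encodes the adhesion molecule R-cadherin, gave the longest run of gains. Its 5 called sites lie between 89 and 1166 bp after the gene start, in CpG island sequence of the first exon and the first intron. At the lead site, chr2:179178093-179178098, AL-young mice had 4.29%, 5.48%, 2.80%, 2.12% and 2.98%. AL-old mice ran from 6.96% through a median of 25.0% to 31.6%. CR-old mice had 4.61%, 4.89%, 6.63%, 5.08% and 8.90%. All 7 AL-old mice were above all AL-young mice, whereas 2 of 5 CR-old mice were. The means were 3.53% ± 1.34 (SD, n = 5), 20.2% ± 11.5 (n = 7) and 6.02% ± 1.79 (n = 5). The log2 odds ratio between AL-old and AL-young was 2.65 ± 0.68 (SE; edgeR adjusted p = 0.0044).

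The other Cdh4 island sites showed the same order of group means with different mice in the lead. At chr2:179177810-179177815 AL-young mice had 1.02% to 1.75%, AL-old mice 1.60% to 58.3% with a median of 10.8%, and CR-old mice 2.04% to 3.71%. There 6 of 7 AL-old and all 5 CR-old mice exceeded the AL-young range. AL-old 27, a male with a low factor, had the 58.3%, and AL-old 08 the 1.60%. The AL-old means of the remaining 3 sites were 5.18% ± 4.34 (n = 6), 7.99% ± 8.48 (n = 7) and 8.40% ± 9.96 (n = 7), against AL-young means of 0.664%, 0.896% and 1.06%. The last of these, 1166 bp after the start, lost its call without AL-old 09 or AL-young 28, 29 or 30. The 5 sites of Cdh4 deeper in the gene, outside the island, started at 41.9% to 88.8% in AL-young mice and none was called. Their AL-old means lay 3.75 to 24.8 points lower. These means are uncorrected and include the 5 AL-old mice with a high factor. At the body sites starting at 179252943 and 179253126, 3 AL-old mice were above and 3 below the AL-young range. At each remaining body site 1 was above it, and 3, 5 or 6 were below. The gene thus held called gains at its start, while the lower means in its body were not called.

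Pgr, the progesterone receptor gene, had 2 measured sites in its first coding exon. At chr9:8901338-8901343 AL-young mice had 0.798%, 0.630%, 0.607%, 0.400% and 0.412%. The AL-old values went from 1.17% through a median of 6.36% to 23.6%, and CR-old mice had 0.515%, 2.08%, 2.15%, 1.24% and 2.77%. All 7 AL-old and 4 of 5 CR-old mice were above the AL-young range. The odds of methylation were higher by a log2 odds ratio of 3.60 ± 0.77 in AL-old mice (SE; edgeR adjusted p = 0.00056). The other site, 252 bases upstream, was at 42.2% in AL-old 27 and between 0.279% and 3.85% in the other 6 AL-old mice, and was not called (adjusted p = 0.153).

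Hic1, which encodes a zinc finger repressor named for its methylation in cancer, had 9 measured sites. Its 2 called sites lie in the coding exon, 2296 and 2605 bp after the gene start. The 3 sites between -944 and 715 bp had group means of 0% to 0.323% in all 3 groups. At chr11:74980413-74980418 AL-young mice had 1.01%, 0.501%, 0.690%, 0.676% and 0.425%. AL-old values went from 0% through 3.57% to 51.6%, and CR-old mice had 3.89%, 6.90%, 4.98%, 3.24% and 1.29%. Here all 5 CR-old mice were above all AL-young mice, as were 6 of 7 AL-old mice. The 51.6% was AL-old 13, which also had 43.0%, 75.4% and 44.3% at the neighbouring Hic1 sites, and AL-old 27 came next with 12.3% to 14.8% at these 4 sites. The log2 odds ratio at the lead site was 2.96 ± 0.85 (edgeR adjusted p = 0.013), and without AL-old 13 it was 2.39 with adjusted p = 0.035. The other called Hic1 site, at chr11:74980722-74980727, lost its call without AL-old 13 (adjusted p = 0.085) or AL-young 29 (adjusted p = 0.052). With a high or low factor as covariate neither kept its call (adjusted p = 0.062 and 0.105).

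Prdm16 encodes a zinc finger factor with roles in blood stem cells and brown fat, and lies on the reverse strand. Its 3 called sites lie 732 to 1038 bp after the start, in the first intron. At chr4:154010247-154010252, with 279 to 3384 reads per mouse, AL-young mice had 0.267%, 0.198%, 0%, 0.177% and 0.148%. In AL-old mice the values were 0.170% at the lowest, 0.632% at the median and 9.32% at the highest, and CR-old mice had 1.26%, 0.204%, 0%, 0.456% and 1.41%. AL-old 27 and 09 had 9.32% and 4.84%, and the other 5 were at 1.23% or below. The edgeR adjusted p was 0.026 with a log2 odds ratio of 2.94 ± 0.93 (SE). At the tandem pair, AL-old 27, 09 and 10 led with 7.54%, 3.53% and 2.68% at chr4:154009941-154009946, where all 5 AL-young mice had 0%. Means differed by 2.03, 2.09 and 2.28 points at the 3 sites, close to the 2 points the call needs, and without AL-old 27 or AL-old 09 none of them was called. Single calls were also lost without AL-old 10, AL-young 28 or AL-young 30. Upstream of the start, at chr4:154011703-154011708, AL-old 09, 14 and 27 had 11.1%, 8.89% and 10.2%, against at most 1.69% in AL-young mice, and the site was not called (adjusted p = 0.161).

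Tmeff2, which encodes a membrane protein with follistatin and EGF-like domains, had 2 sites in a CpG island within the gene, near the start of a shorter transcript. At chr1:50984269-50984274, which lies 91 bp before that start, AL-young mice had 0.70%, 0.432%, 0.303%, 0.471% and 0.290%. AL-old values went from 0.179% through 2.97% to 12.95%, and CR-old mice had 1.17%, 0.886%, 0.570%, 0.530% and 0.300%. The groups overlapped: 5 of 7 AL-old mice were above the AL-young range and 1 was below it. By edgeR the log2 odds ratio was 2.64 ± 0.81 (SE, adjusted p = 0.021), and the call was lost without AL-old 13 (adjusted p = 0.05007) or AL-young 30 (adjusted p = 0.061), with the high or low factor as covariate (adjusted p = 0.120) and among low-factor mice (adjusted p = 0.052).

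**Figure D2:**
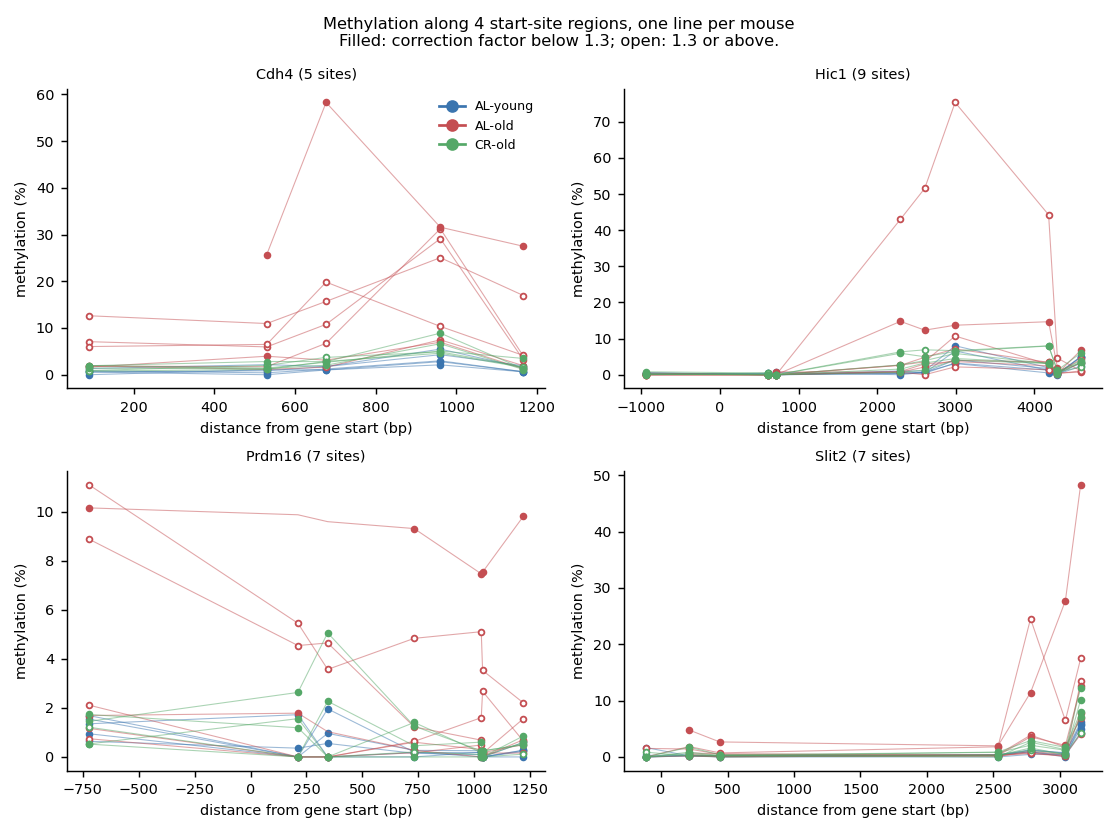
Uncorrected methylation in percent at the measured sites around the starts of Cdh4, Hic1, Prdm16 and Slit2, by distance from the gene start in bp; each line is 1 mouse and crosses sites where that mouse had under 50 reads, with open points for a correction factor of 1.3 or above. AL-old 13 reaches 75.4% in Hic1 and AL-old 27 reaches 58.3% in Cdh4 and 48.3% in Slit2, while the AL-young and CR-old mice reach at most 12.3% in these panels.

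Several genes had raised single mice and no call. In Cacna2d3, a calcium channel subunit gene, the promoter site at chr14:30534917-30534922 was at 63.1% in AL-old 27 and 17.4% in AL-old 09, and between 1.14% and 3.24% in AL-young mice (edgeR adjusted p = 0.210). Slit2, whose product guides axons through Robo receptors, had 48.3% in AL-old 27 at chr5:48377547-48377552, against 4.20% to 6.23% in AL-young mice (adjusted p = 0.250). At the neighbouring chr5:48377170-48377175, AL-old 14 led with 24.5%. Wt1, a zinc finger gene, had 28.2% in AL-old 27 and 17.4% in AL-old 09 at chr2:104967032-104967037, against 1.17% to 2.25% in AL-young mice (adjusted p = 0.183). With the correction factor as an offset, sites of Cacna2d3, Slit2 and Wt1 were called higher, along with 1 of the 2 island sites of Cdh13, a Sept9 site, 2 further Prdm16 sites and 1 further site each of Hic1, Pgr and Tmeff2. The SD over AL-old mice exceeded that over AL-young mice at 107 of 130 sites, with medians of 4.86 and 0.633 points. The SD over CR-old mice did so at 103 of 130 sites, with a median of 1.19 points. These SDs are of uncorrected values, and the same counts were not made over all tested sites. The correction factor ran from 0.872 to 3.96 in AL-old and from 0.896 to 1.13 in AL-young mice, and its part in the spread was not tested.

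The 5 sites called lower in AL-old mice started at intermediate or high methylation, and 4 of them lie outside CpG islands. Trp73, a member of the p53 family, had 2 of them in an intron, 48684 and 49103 bp after the start. At chr4:153465630-153465635 AL-young mice had 73.1%, 79.5%, 78.3%, 86.6% and 82.7%. AL-old values went from 2.51% through 14.9% to 77.6%, and CR-old mice had 57.7%, 53.8%, 68.9%, 65.9% and 69.7%. AL-old 25 alone was inside the AL-young range, and all 5 CR-old mice were below it. By edgeR the log2 odds ratio was -4.47 ± 0.78 (SE, adjusted p = 2.96e-05), and it was -3.53 with the offset (adjusted p = 0.00022). Among low-factor mice, where AL-old 25 had 77.6% and AL-old 27 had 3.28%, adjusted p was 0.073. At chr4:153465211-153465216, 419 bases away, means were 64.9% ± 3.2 (n = 5), 22.5% ± 17.6 (n = 7) and 51.5% ± 8.81 (n = 5), and all 7 AL-old mice were below all AL-young mice. This call was lost with the high or low factor as covariate (adjusted p = 0.147) and among low-factor mice (adjusted p = 0.125).

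Mgmt encodes the protein that removes alkyl groups from guanine. Its lead site, chr7:144086786-144086791, lies in the first intron 495 bp after the start, outside a CpG island. That is just inside the promoter window, which ends 500 bp after the start. AL-young mice had 57.3%, 56.1%, 50.7%, 56.5% and 55.3%. AL-old values went from 1.03% through 7.14% to 71.9%, and CR-old mice had 49.5%, 19.9%, 61.9%, 65.0% and 55.3%. The 5 AL-old mice with a high factor had 1.03% to 18.1%, the 2 with a low factor had 71.9% and 36.2%, and the 1 CR-old mouse with a high factor had the 19.9%. In edgeR's test of all mice the log2 odds ratio was -3.19 ± 0.80 (SE, adjusted p = 0.0036), but it was -0.52 with a high or low factor as covariate (adjusted p = 0.835) and -0.04 among low-factor mice (adjusted p = 1). Low values at this site thus went with a high factor. Within AL-old a high factor cannot be told apart from female sex or from the lower ages of that group.

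In Cdkn1a, a cyclin-dependent kinase inhibitor gene, a CpG island site in an untranslated region at chr17:29235319-29235324 averaged 95.9% ± 2.21 (n = 5) in AL-young, 79.1% ± 12.7 (n = 7) in AL-old and 90.5% ± 2.68 (n = 5) in CR-old mice. AL-young mice had 96.6%, 97.5%, 97.5%, 92.2% and 95.4%, AL-old mice ran from 62.4% through 78.9% to 96.1%, and CR-old mice had 90.4%, 91.8%, 88.8%, 87.4% and 94.3%. It was lower in 6 of 7 AL-old mice than in any AL-young mouse (log2 odds ratio -2.48 ± 0.71, edgeR adjusted p = 0.012), and was not called with the offset (adjusted p = 0.107), with the high or low factor as covariate (adjusted p = 0.088), among low-factor mice (adjusted p = 0.086) or by limma on adjusted values (adjusted p = 0.082). The Slit2 site at chr5:48387220-48387225, in an intron, had 94.2%, 94.6%, 95.8%, 96.8% and 94.9% in AL-young mice and 6.01% to 94.3% in AL-old mice with a median of 80.4%. CR-old mice had 87.7%, 80.4%, 80.5%, 84.8% and 87.8%, all below the AL-young range. By edgeR the log2 odds ratio was -2.31 ± 0.77 (SE, adjusted p = 0.039). The call was lost with the offset (adjusted p = 0.099) and without AL-old 13, which had the 6.01% (adjusted p = 0.084), and also without any 1 of AL-old 08, AL-old 09 and AL-young 15, 28, 29 and 30.

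**Figure D3:**
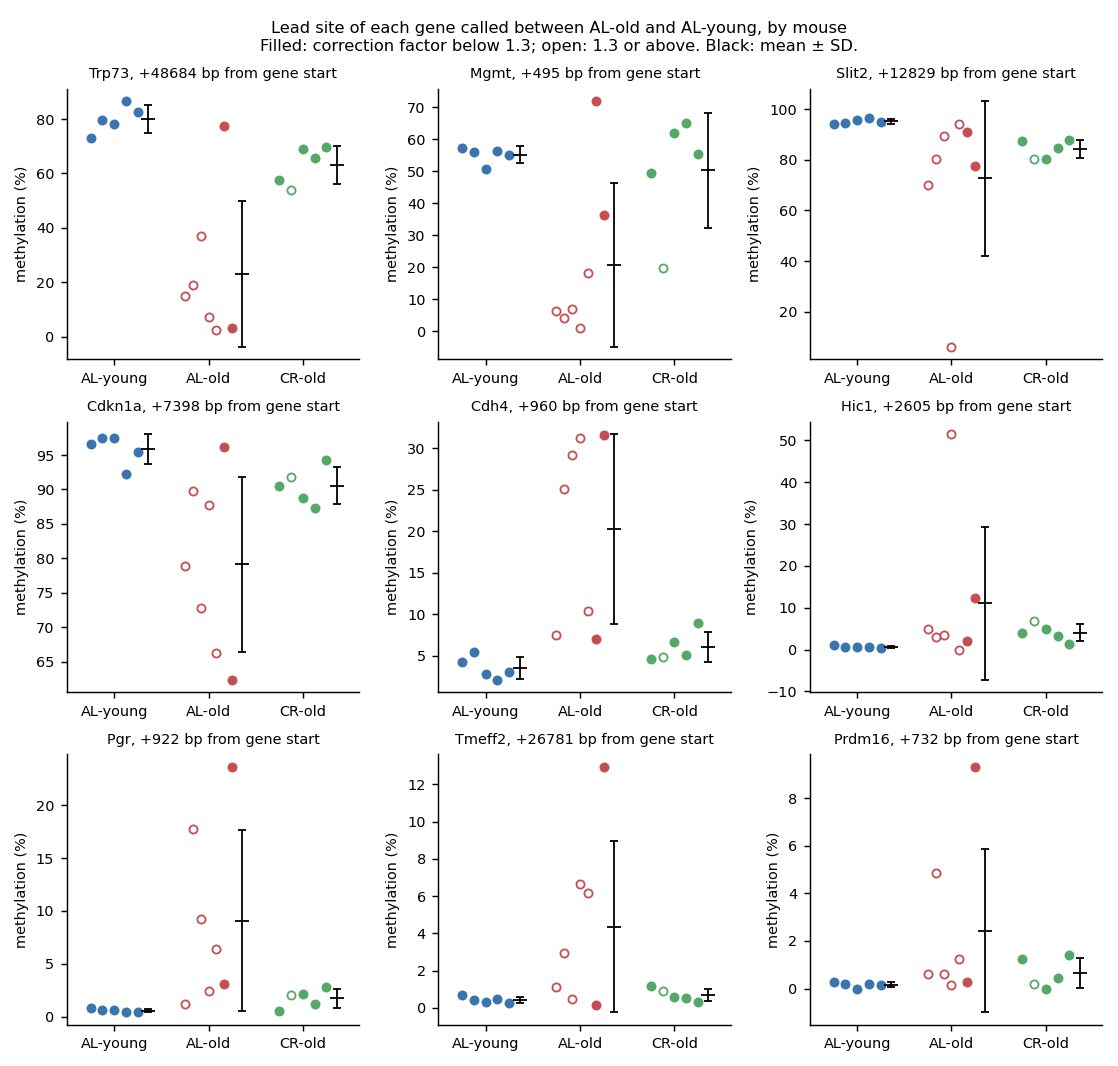
Uncorrected methylation in percent by mouse at the called site with the largest AL-old minus AL-young difference in each of 9 genes; open points are mice with a correction factor of 1.3 or above, and black marks are mean ± SD. AL-old mice spread widely, and AL-old 25 sits near AL-young mice at the Trp73 and Cdkn1a sites, with 77.6% and 96.1%.

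By role, the cadherins (15 sites) had 5 gains and 0 losses, all gains in Cdh4. The DNA-binding developmental factors (32 sites) also had 5 gains and 0 losses, the nuclear hormone receptors (7 sites) 1 gain, and the cytokine brakes and signalling genes (26 sites) 1 gain and 1 loss. Cell cycle brakes and the p53 family (19 sites) had 0 gains and 3 losses, and the DNA repair genes (8 sites) 0 gains and 1 loss. The Ras-association genes (3 sites), matrix and protease inhibitors (2 sites) and the remaining cancer-marker genes (18 sites) had 0 calls. Of all tested sites 3.95% were called higher and 5.95% lower. With 2 to 32 sites per role these counts are small, and differences between roles were not tested. Beside the member genes, 45 of 89 listed relatives had 138 measured sites, of which 7 were called higher (5.07%) and 2 lower (1.45%). Among these 9 called sites, the largest differences were at 2 intron sites of Cdh23, which averaged 88.4% and 92.1% in AL-young and 59.1% and 65.4% in AL-old mice, and at a Cdh2 island site, which averaged 0.274% in AL-young, 18.7% in AL-old and 1.37% in CR-old mice.

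At the level of the mouse, the mean over the 73 island sites that were below 5% in AL-young mice was 0.545% to 0.852% in AL-young, 0.810% to 9.52% in AL-old and 0.867% to 1.37% in CR-old mice. AL-old 27 was highest with 9.52%, and 21 of its 66 measured island sites were at 10% or more. It was also the highest AL-old mouse at 24 of the 37 island sites where any AL-old mouse reached 5%. The share of these sites lying at least 2 points over the AL-young maximum was 1.41% in AL-old 08, 8.82% to 26.0% in the next 5 and 50% in AL-old 27, and 2.74% to 8.22% in CR-old mice. Over all sites of this class the shares were 1.53% to 21.4% in AL-old and 1.06% to 2.27% in CR-old mice. AL-old 08 had a high factor, and its adjusted mean over the member island sites was 3.14% against 0.810% uncorrected.

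**Figure D4:**
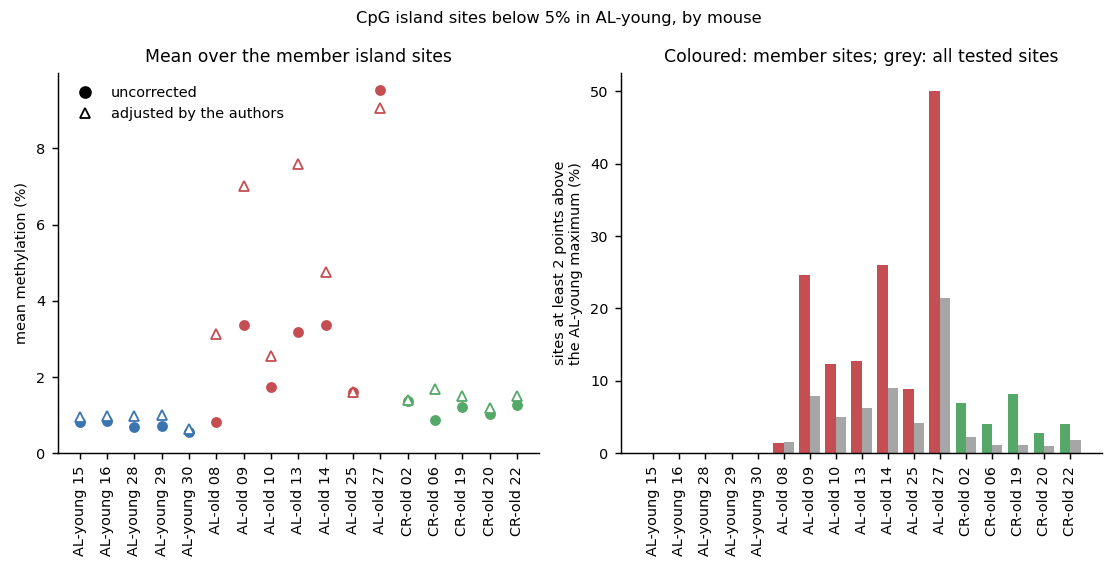
Left, mean methylation in percent over the 73 member island sites below 5% in AL-young mice, per mouse, uncorrected (circles) and adjusted by the authors (triangles). Right, percent of such sites at least 2 points above the AL-young maximum, for the member sites (coloured bars) and all tested sites of the class (grey bars), where AL-old 27 reaches 50% and 21.4% and AL-young mice are at 0 by construction.

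AL-old values lay wholly above AL-young values at 3 of the 130 member sites, against 2.0% of all sites, and wholly below at 1, against 2.07%. The 3 were 2 Cdh4 sites and the Pgr site, and the 1 was in Trp73.

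The second comparison, CR-old against AL-old, asked how methylation differed with caloric restriction at old age. Of 130 member sites, 4 were called higher in CR-old and 3 lower, where 1.63% of all sites were higher and 1.89% lower. The higher sites were 3 in Trp73 and the Mgmt intron site, and the lower ones were in Mgmt, Cdh13 and Sept9. At the Trp73 lead site above, CR-old means were 63.2% ± 7.08 (n = 5) against 23.1% ± 26.8 (n = 7) in AL-old mice (log2 odds ratio 3.23 ± 0.77, edgeR adjusted p = 0.0078), and adjusted p was 0.109 with the high or low factor as covariate and 0.348 among low-factor mice. At the Mgmt intron site the means were 50.3% ± 18.1 (n = 5) and 20.7% ± 25.6 (n = 7) (adjusted p = 0.029), and adjusted p was 0.637 with that covariate. Another Trp73 site, 890 bp after the start, had 20.2%, 2.85%, 13.2%, 15.1% and 9.596% in CR-old mice and 0% to 23.6% in the 6 AL-old mice with enough reads, with a median of 0.5% (edgeR adjusted p = 0.042), and AL-young mice had 5.71% to 7.69%. All 4 higher calls were lost with the high or low factor as covariate and among low-factor mice. Fitted on the 12 mice of these groups alone, edgeR called 1 member site higher, where 0.868% of all sites were, and 0 lower, where 0.747% were.

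The sites called lower in CR-old mice were outside CpG islands. Sept9, a septin gene, had 20.7%, 55.1%, 11.8%, 7.98% and 6.94% in CR-old mice at chr11:117202122-117202127, and 24.2% through 48.4% to 68.2% in AL-old mice, with AL-young mice at 20.8% to 35.0%. The 55.1% was CR-old 06, the one CR-old mouse with a high factor, and without it adjusted p went from 0.040 to 0.0060. AL-old mice with a high factor averaged 56.0% and those with a low factor 33.2%, and among low-factor mice adjusted p was 0.072. At the Cdh13 site, chr8:121817309-121817314, only 3 AL-old mice had 50 reads, all at 100%, and CR-old mice had 94.9%, 100%, 90.7%, 98.0% and 97.5%. At the Mgmt site chr7:144221686-144221691 the 4 AL-old mice with 50 reads had 99.4% to 100% and CR-old mice 87.1% to 98.7%. All 3 lower calls were lost with the high or low factor as covariate and among low-factor mice.

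None of the 12 sites that gained methylation with age was called between CR-old and AL-old in the test of uncorrected reads. At the lead sites of Cdh4, Pgr, Hic1, Prdm16 and Tmeff2 the edgeR adjusted p-values were 0.113, 0.108, 0.923, 0.515 and 0.161. With the correction factor as an offset, 16 member sites were called lower in CR-old mice and 2 higher, where 6.66% and 1.14% of all sites were. Limma on the authors' adjusted values called 15 and 2, where 6.61% and 1.11% of all sites were, so lower calls were more frequent over all sites as well. The offset calls included all 5 Cdh4 island sites, a Prdm16 pair site and the Pgr and Tmeff2 lead sites, with adjusted p = 0.011 at the Cdh4 lead site and 0.0095 at the Pgr lead site. They included 0 Hic1 sites. With a high or low factor as covariate, adjusted p at the Cdh4 and Pgr lead sites was 0.180 and 0.114. The calls at these islands thus depended on how the factor was treated. At 0 member sites did the CR-old values lie wholly above the AL-old values, against 0.281% of all sites, and at 1 they lay wholly below, against 0.81% of all sites.

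**Figure D5:**
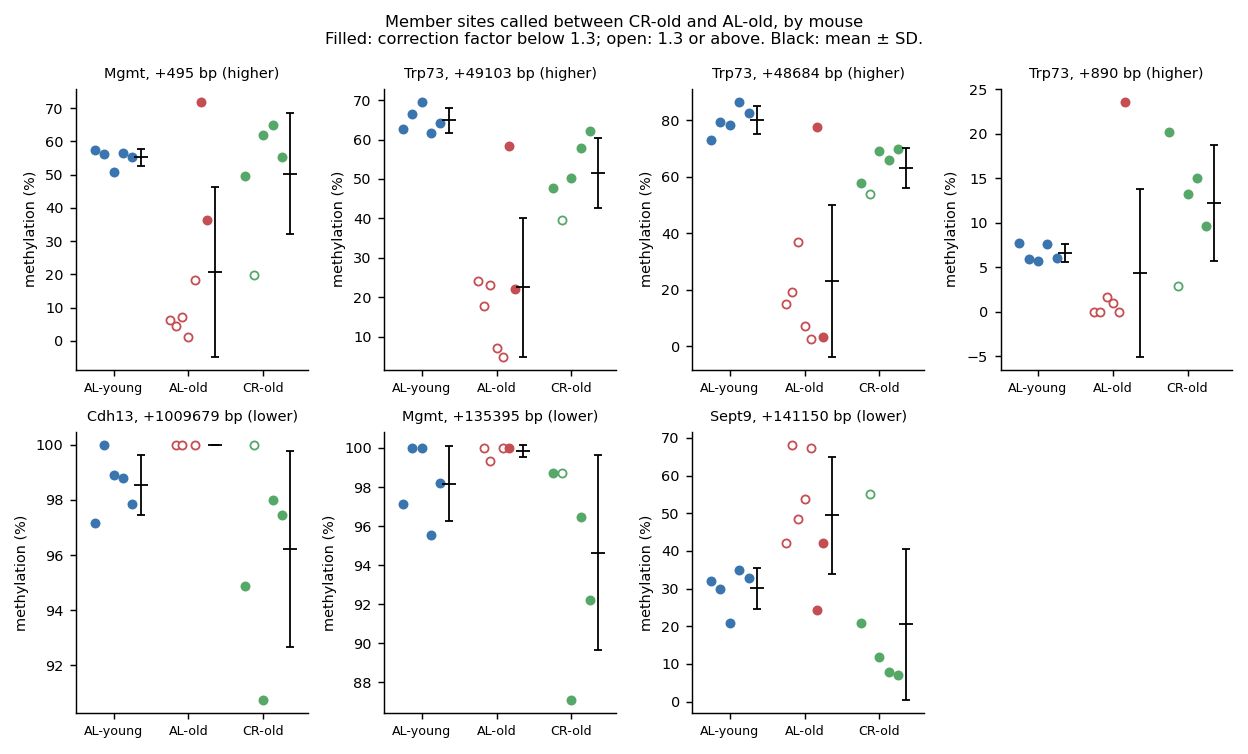
Uncorrected methylation in percent by mouse at the 7 member sites called between CR-old and AL-old, with the distance from the gene start and the direction in CR-old above each panel; open points are mice with a correction factor of 1.3 or above, and black marks are mean ± SD. At the 4 sites higher in CR-old, AL-old 25 lies apart from the open AL-old points. The other filled AL-old mouse, AL-old 27, lies among them at the Trp73 lead site with 3.28%, and above them at the Mgmt intron site with 36.2%. In the Sept9 panel CR-old 06 lies at 55.1%, above the other CR-old mice.

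The third comparison, CR-old against AL-young, asked what remained different in restricted mice. No member site and no other site was called by edgeR (0.0% of 18884), with 9 member sites and 1293 of all sites at an unadjusted p under 0.05. Limma on adjusted values also called 0 member sites. The exact permutation test called 0 sites in all 3 comparisons, and its smallest possible p here is 0.00794 before adjustment. Its 0 therefore cannot show likeness of the groups. By that test 33 member sites (14 higher, 19 lower) had an unadjusted p under 0.05. They were 25.4% of the member sites, where 16.7% of all sites had such a p. The shared estimate of the spread includes the variable AL-old mice: fitted on the 10 mice of these groups alone, edgeR called 3 member sites higher, where 0.831% of all sites were, and 10 lower, where 6.56% were. CR-old values lay wholly above AL-young values at 3 member sites, against 1.07% of all sites, and wholly below at 10, against 6.74%.

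Of the 12 classical promoters set aside for description whatever their values, 3 had a measured promoter site. The Rb1 site at chr14:73725608-73725613, 18 bp after the start of this cell cycle brake, had 1 methylated read of 1493 in AL-young, 0 of 866 in AL-old and 2 of 833 in CR-old mice, where 0 of 866 allows up to 0.346%. Apc, which holds the Wnt pathway in check, had 0 of 2413, 0 of 2933 and 0 of 1562 methylated reads at its site 125 bp after the start, which allows up to 0.124%, 0.102% and 0.192%. The Mgmt site 224 bp after the start had 0.643%, 0.538%, 0%, 0% and 1.21% in AL-young mice, 0% through 0.913% to 7.96% in AL-old mice and 1.10%, 2.21%, 1.24%, 1.97% and 0.441% in CR-old mice, and was not called (edgeR adjusted p = 0.311 for age). This site lies 271 bases from the Mgmt intron site that was lower in AL-old mice. The intron site, 495 bp after the start, also falls in the promoter window but is farther from the start.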

How the data were processed

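Whole-blood DNA of 17 mice was measured by DREAM. The authors cut DNA with SmaI and XmaI, sequenced the fragments, aligned the reads (Bowtie2 and SAMtools are named in the submitters' notes, which list both mm9 and mm10) and counted methylated and unmethylated reads per CCCGGG site. The deposited tables hold these read counts and a percent of methylation, uncorrected and adjusted to spiked standards. All 164896 autosomal positions fell on CCCGGG in NCBIM37 (mm9). Group labels are the submitters', and the mouse number names each mouse. Which instrument read which mouse is not given in the sources used here.

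Counts were tested with edgeR 4.0.16 (R 4.3.3, quasi-likelihood, one coefficient per mouse, all 17 mice in one fit) at the 18884 autosomal sites where 13 or more mice had 50 or more reads, with Benjamini-Hochberg adjustment over all of them. Means leave out mice with under 50 reads at a site; the fit keeps their reads. The log2 odds ratio of a site with 0 reads of one kind in a group is not given. A promoter runs from 1000 bp upstream to 500 bp downstream of the gene start. A CpG island is any union of 200 bp windows with at least 50% GC and an observed to expected CpG ratio of at least 0.6. Intervals for single mice are 95% Wilson intervals and, like the limit of 3 reads for a count of 0, cover counting error only. On simulated counts of 4000 sites for AL-old against AL-young, 39% of 200 changed sites were recovered by adjusted p alone, without the 2-point rule. Of those changed 4-fold in odds 37% were recovered and of those changed 8-fold 41%, and 2.5% of calls were false. The simulation gave all mice the same spread and no correction factor. In the data AL-old mice were more variable and most had a high factor, so these shares need not hold for the calls above. Alternatives were the correction factor as an offset or, split at 1.3, as a covariate, low-factor mice only, sex, depth of 20 or 100 reads, the compared groups only, limma 3.58.1 on the logit of adjusted values, an exact permutation test, and leaving out each mouse.

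The member genes, lists and classes were chosen with earlier results of these data known. The text names, for age, the called site with the largest difference in each gene, all sites called for diet, and fixed promoters; other sites named were chosen after their values were seen. Each mouse is 1 replicate.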

Additional observations from a re-analysis of the deposited data

Results flagged for a closer look

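Of 48 groups of mice examined at the named sites and in 2 per-mouse means, 5 held a value whose gap to the nearest other value was large for the range of its group by Dixon's test, which chance alone gives in about 1 group in 20. AL-old 13 had 6.01% (17 of 283 reads, 95% Wilson interval 3.78 to 9.41) at the Slit2 intron site chr5:48387220-48387225, where the next AL-old mouse had 70%. The same mouse had 51.6% (82 of 159 reads, interval 43.9 to 59.2) at the Hic1 site chr11:74980413-74980418, where the next had 12.3%. CR-old 06 had 55.1% (81 of 147 reads, interval 47.0 to 62.9) at the Sept9 site chr11:117202122-117202127, where the next CR-old mouse had 20.7%. AL-young 16 had 0.714% at the Rb1 promoter site, where the other 4 had 0%, and this is 1 methylated read of 140. AL-old 27 had a mean of 9.52% over the member CpG island sites that were below 5% in AL-young mice, where the next AL-old mouse had 3.38%. AL-old 13 and CR-old 06 carry correction factors of 3.96 and 1.80, and AL-old 27 one of 0.904; the part of the factor in these values was not tested.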

How the results depend on the processing

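The counts of called sites moved with the correction factor, which is high in all 5 AL-old females and in 1 CR-old mouse, with the tool and with single mice. Sites called higher with age numbered 12 by the first fit, 26 with the factor as an offset, 17 with a high or low factor as covariate, 26 in low-factor mice, 25 with limma on adjusted values and 0 with the exact permutation test, whose smallest possible p for 7 against 5 mice is 0.00253 before adjustment over 18884 sites. By that test 43 member sites (37 higher, 6 lower) had an unadjusted p under 0.05. They were 33.1% of the member sites, where 27.1% of all sites had such a p. Sites called lower with age numbered 5 by the first fit and 3, 1, 2, 3 and 0 under the offset, the covariate, low-factor mice, limma and permutation. Sites higher in CR-old than AL-old numbered 4 by the first fit, 2 (offset), 0 (covariate), 0 (low-factor mice), 1 (sex as covariate), 1 (compared groups only), 2 (limma) and 0 (permutation). Sites lower there numbered 3 by the first fit, 16 (offset), 1 (covariate), 2 (low-factor mice), 0 (sex), 1 (100 reads), 0 (compared groups only), 15 (limma) and 0 (permutation). The lower calls under the covariate and in low-factor mice were in Cacna2d3 and Esr1 and held 0 of the first 3. Of all 18884 sites, the covariate gave 25 higher and 239 lower in CR-old than AL-old, low-factor mice 33 and 556, and sex 182 and 265. CR-old against AL-young, 0 by the first fit, gave 1 higher and 7 lower in low-factor mice and 3 and 10 in the compared groups only. Of all 18884 sites these 2 fits called 66 higher and 521 lower, and 157 higher and 1239 lower. Beyond fewer mice or a shared spread, the cause of each change was not tested. Leaving out 1 mouse gave 8 to 13 age gains (8 without AL-old 09 or AL-young 30), 4 to 10 age losses (9 and 10 without AL-old 14 and 25), 1 to 4 sites higher and 0 to 12 lower in CR-old than AL-old (12 without AL-old 25), and 0 in CR-old against AL-young. For the 24 site-level calls, 472 of 621 alternatives kept the call, 149 lost it and 0 changed direction. The Pgr lead site and 3 Cdh4 sites kept it in all alternatives but the permutation test. Among the 7 calls between CR-old and AL-old, the Trp73 lead site kept its call without any 1 mouse, and the other 6 each lost it without any 1 of 5 to 12 mice, which between them were all mice but AL-old 25, AL-old 27 and CR-old 06. No paired analysis was possible because the groups share no mouse numbers.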
